A study of Mus musculus with 12 samples.

Results

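Tubulin is the protein to which vincristine (VCR) binds, and the mRNAs of the alpha- and beta-tubulin genes were followed here in 12 mouse rhabdomyosarcoma (RMS) tumors. The genes were chosen by name: 4 alpha genes (*Tuba1a*, *Tuba1b*, *Tuba1c* and *Tuba4a*) and 6 beta genes (*Tubb2a*, *Tubb2b*, *Tubb3*, *Tubb4b*, *Tubb5* and *Tubb6*), 10 of the 38898 genes measured. All 10 were among the 17602 genes with enough reads to be tested. The tumors were grown from Rd76-9, a single mouse line of embryonal RMS that came from a tumor induced by methylcholanthrene in a female mouse, and the cells were injected into the flank of young adult wild-type C57/Bl6J mice. The hosts kept their own blood vessels, immune cells and muscle, so each bulk tumor held RNA of the line and of the host. There were 3 tumors in each of 4 groups, all collected at day 16: vehicle (saline and empty nanoparticles; m1, m2 and m3), VCR at 0.25 mg/kg (m4, m5 and m6), RCM1, an inhibitor of the transcription factor FOXM1, at 8 µg per injection in nanoparticles with folic acid (RCM1-NPFA; m7, m8 and m9), and VCR + RCM1-NPFA at the same doses (m10, m11 and m12). VCR was given into the peritoneum and nanoparticles into a vein. One label of the vehicle tumors also names RCM1 nanoparticles, while their titles and the series' design text call them controls, and the titles were followed.

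Alpha- and beta-tubulin pair into the dimers of which microtubules are built, and each cell makes several near-identical versions of both, called isotypes, from separate genes. Vinca alkaloids such as VCR bind beta-tubulin at the surface between dimers and stop microtubule growth, so dividing cells arrest in mitosis. Cells also control tubulin mRNA by the amount of free dimer: when it rises, TTC5 recognizes the first residues of new tubulin chains on the ribosome and recruits SCAPER and the CCR4-NOT deadenylase, which degrade the mRNA. *Tuba1a*, *Tubb2a*, *Tubb2b* and *Tubb3* are best known from neurons, *Tuba4a* and *Tuba8* from muscle and other differentiated tissues, while *Tuba1b*, *Tuba1c*, *Tubb4b*, *Tubb5* and *Tubb6* are used by many cell types.

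The coding sequences are shown for 2 reasons: they hold the codons read by the mRNA control, and they tell how far short reads can separate the genes. Each member had 4 exons in the GENCODE M21 annotation of GRCm38. The first 30 coding bases of 9 members are given in the mRNA's direction, with the first 4 codons, which encode the residues that TTC5 recognizes, in capitals.
*Tuba1a*: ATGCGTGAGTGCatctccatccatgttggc
*Tuba1b*: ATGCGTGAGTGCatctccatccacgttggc
*Tuba1c*: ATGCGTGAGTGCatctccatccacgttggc
*Tuba4a*: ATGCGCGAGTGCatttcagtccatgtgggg
*Tubb2a*: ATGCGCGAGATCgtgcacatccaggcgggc
*Tubb2b*: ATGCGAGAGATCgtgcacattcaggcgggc
*Tubb3*: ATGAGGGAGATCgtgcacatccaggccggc
*Tubb4b*: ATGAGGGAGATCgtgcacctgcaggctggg
*Tubb5*: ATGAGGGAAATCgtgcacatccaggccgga
The fourth codon differs between the families, TGC in the alpha genes and ATC in the beta genes, while *Tuba1a*, *Tuba1b* and *Tuba1c* share all 12 capital bases.

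Near the other end, at the tail of the protein where isotypes usually differ most, the closest pair of beta genes still differed by few bases. The last 60 coding bases, stop codon included, are given for *Tubb2a* and *Tubb2b*, with the bases that differ within the pair in capitals.
*Tubb2a*: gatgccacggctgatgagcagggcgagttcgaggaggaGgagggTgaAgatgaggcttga
*Tubb2b*: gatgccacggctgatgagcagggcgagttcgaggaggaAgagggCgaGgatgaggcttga
*Tubb2a* and *Tubb2b* differed at 3 of these bases and at 47 of the 1338 bases of the coding sequence. Coding identity was 84.7% to 98.3% among the alpha genes, 80.2% to 96.5% among the beta genes and 52.3% to 55.1% between the families. Shared words of 31 bases were counted over GENCODE M21 transcripts, while kallisto assigned the reads to RefSeq transcripts. Of the 31-base words in the coding sequence, 97.7% of those of *Tuba1a*, 97.2% of *Tuba1b* and 94.5% of *Tuba1c* also occurred in a transcript of another gene. The share was 68.1% for *Tubb2a*, 75.5% for *Tubb2b* and 77.4% for *Tubb4b*, which has a pseudogene, *Tubb4b-ps1*. Of the words of the whole *Tubb4b* transcript, 54.5% occurred in *Tubb4b-ps1*. The share in coding sequence was 3.6% to 8.0% for *Tuba4a*, *Tubb3*, *Tubb5* and *Tubb6*. Of the words of the whole GENCODE transcript of *Tuba4a*, which has 2840 bases, 51.8% occurred in another gene, 48.0% in *Stk16*. The main RefSeq transcript of *Tuba4a*, to which reads were assigned, is shorter, at 2096 bases, and its shared words were not counted. The whole transcripts of *Tubb3*, *Tubb5* and *Tubb6* shared 3.3% to 4.5%. The read counts of *Tuba1a*, *Tuba1b* and *Tuba1c*, and of *Tubb2a* and *Tubb2b*, therefore depend on how kallisto divided shared reads, and sums over each set of copies are given beside the single genes. Those of *Tubb4b* may depend on it too. Whether *Tubb4b-ps1* was among the quantified transcripts was not checked, and no sum of *Tubb4b* with it was made.

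In the mouse genome (GRCm38.p6, RefSeq) *Tuba1b* (chr15:98931429-98934390), *Tuba1a* (chr15:98949847-98953501) and *Tuba1c* (chr15:99029891-99038105) lie in 1 cluster, and so do *Tubb2a* (chr13:34074278-34078008) and *Tubb2b* (chr13:34127008-34130354). The others stand alone: *Tuba4a* (chr1:75214972-75221261), *Tubb4b* (chr2:25222158-25224702), *Tubb3* (chr8:123411553-123422015), *Tubb5* (chr17:35833920-35838301) and *Tubb6* (chr18:67390731-67402749). RefSeq listed 4 transcripts of *Tuba4a*, of which 1 took 95.6% of its level corrected for transcript length, and 1 transcript of each other member.

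Each tumor gave between 29342195 and 32108055 estimated reads, and the members had between 254 (*Tubb3*) and 63527 (*Tubb5*) reads in a tumor, so counting error was small against the spread between tumors. The labels do not mark batches. The labelled tumor type was checked against 8 myogenic genes. *Myf5*, an early myogenic factor, was at 48.9 to 69.9 CPM (reads of a gene scaled to a common library size) and *Cdh15*, a cadherin of muscle precursors, at 125.3 to 202.0 CPM in the 12 tumors, while *Myod1*, *Myog* and *Pax7* were at 2.38 CPM or less in each. In vehicle tumors *Myod1* and *Myog* were at 0.062 CPM or less and *Des* at 7.76 to 11.4 CPM. *Des* was highest in m9, at 572.7 CPM. Over the 12 tumors *Chrna1* was at 2.53 to 9.03 CPM and *Igf2* at 6.11 to 45.8 CPM. Transcripts of mature muscle fibres differed widely between tumors. The summed level of 22 fibre genes was 314.5 to 462.4 CPM after vehicle, 2361 to 15364 CPM after VCR, 425.0 to 23257 CPM after RCM1-NPFA and 864.4 to 6006 CPM after the combination, with m5 and m9 highest. None of the 22 was listed at 0 in all tumors, and in vehicle tumors *Ckm* and *Myh4*, which define the fibre, were at 0 to 22.6 CPM. Most of the vehicle sum came from *Eno3*, at 257.1 to 282.3 CPM, with *Tnni2* at 29.3 to 50.3 CPM. Y-linked transcripts were present in 1 of 3 vehicle tumors and in 2 of 3 tumors of each other group, and the labels do not give the sex of the hosts.

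Levels are given first, in TPM, the share of all transcripts corrected for transcript length, which can be set side by side between genes. *Tuba1b* was the most abundant member, at 1416 to 1863 TPM with a mean of 1597 over the 12 tumors, and ranked 104th among all genes. *Tubb5*, the leading beta isotype of dividing cells, followed at 1020 to 1261 TPM (mean 1089) and *Tuba1a* at 482.0 to 713.7 TPM (mean 572.8). *Tuba1c* (mean 307.9 TPM) and *Tubb4b* (mean 287.4 TPM) were neighbours that were not separated, since *Tuba1c* was the higher of the pair in 10 of 12 tumors. *Tubb6*, at a mean of 224.6 TPM, was below *Tubb4b* in all 12 tumors. *Tubb2a* and *Tubb2b* were close to each other, at means of 76.9 and 73.2 TPM, with *Tubb2a* higher in 8 of 12 tumors. *Tuba4a*, at a mean of 46.9 TPM, was below *Tubb2b* in 10 of 12 tumors. *Tubb3*, the isotype used as a marker of neurons, was lowest in every tumor, at 8.17 to 17.4 TPM. Together the 10 genes made up 0.401% to 0.492% of all TPM, and summed alpha-tubulin exceeded summed beta-tubulin by a ratio of 1.31 to 1.498.

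**Figure D1:**
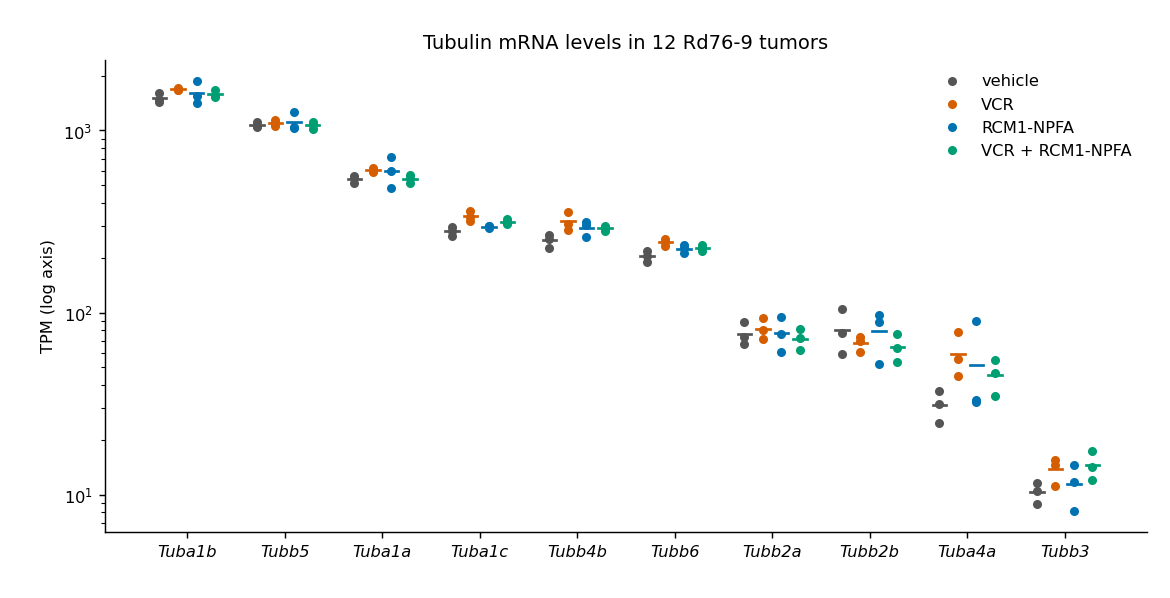
TPM of the 10 tubulin genes (log axis) in each of the 12 tumors, ordered by their mean; points are tumors, colored by group, and short lines are the means of 3 tumors. *Tuba1b* and *Tubb5* lie at 1020 TPM or more in every tumor, *Tubb3* at 17.4 or less, and *Tuba4a* has the widest spread of points within a group.

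The remaining alpha- and beta-tubulin genes contributed little. *Tuba3a*, *Tuba3b*, *Tubal3* and *Tubb1*, isotypes of testis, gut and platelets, were at 0.268 TPM or less in every tumor. *Tubb4a*, an isotype of nerve and glia, was at 0.432 to 1.14 TPM. *Tuba8* was the exception: it had 2, 4 and 0 reads in the vehicle tumors, 119, 531 and 67 after VCR, 4, 3 and 638 after RCM1-NPFA, and 106, 144 and 12 after the combination. The reads of *Tuba8* were most in m9 and m5, the tumors with most muscle fibre transcripts. Even there *Tuba8* reached 24.6 TPM, below the 89.7 TPM of *Tuba4a* in the same tumor. *Tuba8* did not pass the test in VCR against vehicle (edgeR adjusted p = 0.111), although every VCR tumor had more reads of it than every vehicle tumor. It passed with m5 and m9 left out (adjusted p = 0.0487) and in DESeq2 (adjusted p = 0.00592).

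The isotype make-up was similar in all tumors. In vehicle tumors *Tuba1b* made up 63.7% ± 1.86 (SD, n = 3) of the TPM of the 4 alpha genes, *Tuba1a* 23.1% ± 1.70, *Tuba1c* 11.9% ± 0.571 and *Tuba4a* 1.31% ± 0.218. Of the 6 beta genes, *Tubb5* made up 63.4% ± 0.710, *Tubb4b* 14.7% ± 1.45, *Tubb6* 12.04% ± 1.02, *Tubb2b* 4.73% ± 1.27, *Tubb2a* 4.51% ± 0.545 and *Tubb3* 0.611% ± 0.0808. Over all 12 tumors *Tuba1b* stayed between 60.3% and 65.9% of alpha-tubulin and *Tubb5* between 58.5% and 64.2% of beta-tubulin.

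The largest difference in make-up between VCR and vehicle was that of *Tubb5*, and shares are described here without a test. Its share of beta-tubulin was 62.8%, 63.1% and 64.2% in vehicle tumors, 61.3%, 58.5% and 61.2% after VCR, 61.3%, 62.7% and 61.5% after RCM1-NPFA, and 61.1%, 61.9% and 61.5% after the combination. All 9 treated tumors thus lay below the 3 vehicle tumors, by 3.03, 1.52 and 1.87 percentage points on average in the respective groups. The share of *Tubb4b* was 2.64 points higher after VCR (17.4% ± 2.04 against 14.7% ± 1.45), 1.53 points higher after RCM1-NPFA and 1.996 points higher after the combination. The groups did not overlap for *Tubb4b* in the combination, and overlapped by 0.005 points in VCR. The share of *Tubb6* was 1.27 points higher after VCR, 0.531 after RCM1-NPFA and 1.03 after the combination, with overlap in each. *Tubb3* had a share 0.222 points higher after the combination, without overlap, and *Tubb2a* and *Tubb2b* overlapped with vehicle in every group.

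Among the alpha genes the share of *Tuba4a* was 1.34%, 1.52% and 1.09% in vehicle tumors and 2.08%, 2.88% and 1.69% after VCR, without overlap. After RCM1-NPFA it was 1.38%, 1.13% and 3.73%, so that only m9 lay above the vehicle tumors. After the combination it was 1.89%, 2.09% and 1.45%, with m12 inside the vehicle range. The shares of *Tuba1a* and *Tuba1b* overlapped with vehicle in every group, with average differences of at most 1.25 points, and that of *Tuba1c* was 0.866 points higher in the combination, where the lowest tumor lay 0.023 points above the highest vehicle tumor. Since the shares of a family add up to a fixed total, a higher share of 1 gene lowers the others.

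**Figure D2:**
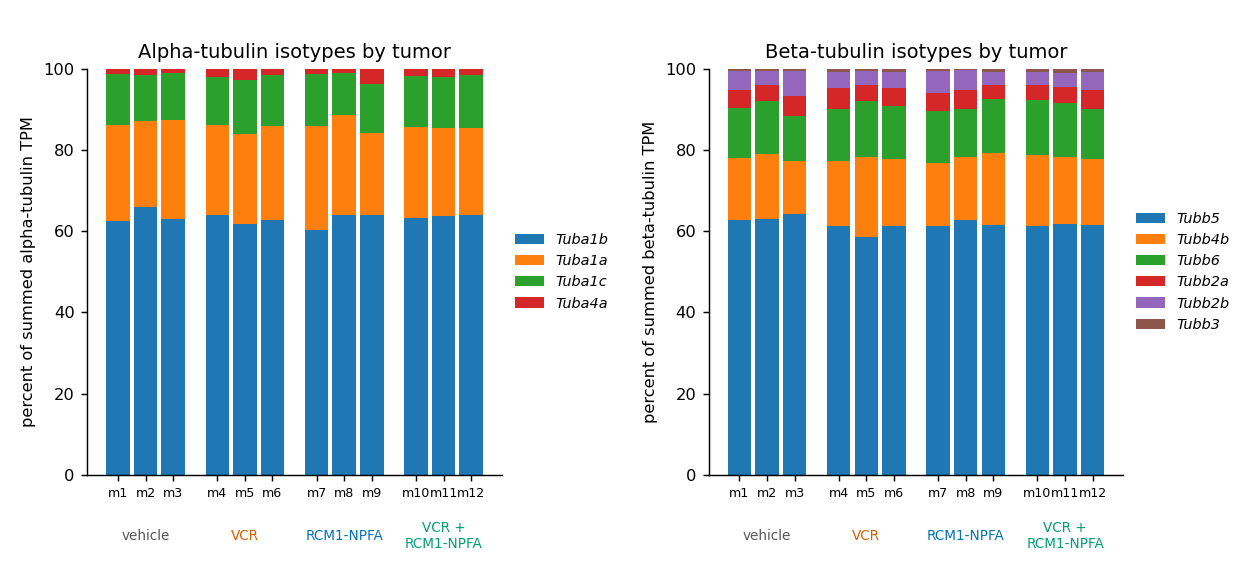
Isotype make-up of each tumor: stacked bars give each gene's percent of the summed TPM of the 4 alpha genes (left) and the 6 beta genes (right), with tumors m1 to m12 by group. *Tuba1b* and *Tubb5* fill most of every bar, and the *Tubb5* segment is lower in the 9 treated than in the 3 vehicle tumors.

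VCR alone against vehicle asks whether tubulin mRNA differs in tumors exposed to the drug that binds tubulin. In edgeR's quasi-likelihood test on normalized counts, 3 of the 10 members passed the threshold of adjusted p under 0.1, all higher after VCR: *Tuba1c*, *Tubb4b* and *Tubb6*. Over all tested genes 5.72% passed (1006 of 17602, 510 higher and 496 lower). The log2 fold change was positive for 9 of 10 members with a median of 0.28, beside a median of 0.00 over all genes. In 7 of 10 members every VCR tumor was higher than every vehicle tumor, which held for 13.5% of all genes. In the sentences that follow, levels in single tumors are CPM after TMM normalization, in the order of the tumor numbers.

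*Tuba1c*, a widely used alpha isotype, was at 319.8, 304.3 and 319.8 CPM in vehicle tumors and 377.8, 447.6 and 374.1 CPM after VCR. It was 1.27-fold higher (log2 fold change 0.35, SE 0.08, adjusted p = 0.0761), and the lowest VCR tumor lay above the highest vehicle tumor. *Tubb4b*, the beta isotype needed for the axonemes of cilia but made in most tissues, was at 217.1, 230.1 and 217.4 CPM after vehicle and 267.8, 352.4 and 272.3 CPM after VCR. It was 1.34-fold higher (log2 fold change 0.43, SE 0.11, adjusted p = 0.0851), again without overlap, and m5 stood well above the others. How far this call rests on reads shared with *Tubb4b-ps1* was not checked. *Tubb6*, a beta isotype that makes microtubule networks less stable when overproduced, was at 199.9, 214.3 and 207.5 CPM after vehicle and 249.1, 284.0 and 246.6 CPM after VCR. It was 1.25-fold higher (log2 fold change 0.33, SE 0.08, adjusted p = 0.0761), without overlap.

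The other alpha genes were higher in every VCR tumor than in every vehicle tumor but did not pass the test. *Tuba1b* was at 1392, 1530 and 1510 CPM after vehicle and 1779, 1810 and 1637 CPM after VCR (log2 fold change 0.24, SE 0.11, adjusted p = 0.213). *Tuba1a* was at 475.7, 443.1 and 527.3 CPM after vehicle and 553.6, 583.0 and 544.1 CPM after VCR (log2 fold change 0.22, SE 0.13, adjusted p = 0.345). Adding the reads of *Tuba1a*, *Tuba1b* and *Tuba1c* removes their division among these 3 genes, but not with any other gene. In GENCODE M21 *AC157548.1* held 66.8% of the words of *Tuba1b*, and whether it was among the quantified transcripts was not checked. With the reads of the 3 genes added, the log2 fold change was 0.25 (SE 0.10, adjusted p = 0.169). The call of *Tuba1c* thus rests on reads that kallisto assigned among 3 near-identical genes.

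*Tuba4a* had the largest log2 fold change of the members and the largest error. It was at 36.6, 43.3 and 32.1 CPM after vehicle and 70.8, 103.2 and 54.2 CPM after VCR, a difference of 2.04-fold (log2 fold change 1.03, SE 0.36, adjusted p = 0.139). Its residual SD within groups was 0.50 on the log2 scale, beside a median of 0.16 over the members and 0.19 over all tested genes.

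The other beta genes did not pass. *Tubb5*, the main beta isotype, was at 1559, 1577 and 1847 CPM after vehicle and 1782, 1804 and 1745 CPM after VCR, with m3 above every VCR tumor (log2 fold change 0.10, SE 0.10, adjusted p = 0.623). *Tubb3* was at 10.98, 8.53 and 11.2 CPM after vehicle and 15.2, 12.1 and 15.3 CPM after VCR (log2 fold change 0.47, SE 0.21, adjusted p = 0.213), without overlap. *Tubb2a* was at 64.6, 59.8 and 86.8 CPM after vehicle and 89.4, 71.99 and 73.2 CPM after VCR (log2 fold change 0.15, SE 0.19, adjusted p = 0.685). *Tubb2b* was at 80.7, 62.4 and 123.2 CPM after vehicle and 80.4, 73.3 and 80.2 CPM after VCR (log2 fold change -0.19, SE 0.26, adjusted p = 0.722). Both *Tubb2* genes were highest in m3 among the vehicle tumors, and the sum of their reads had a log2 fold change of -0.03 (SE 0.23, adjusted p = 0.959).

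The same 3 members were called by DESeq2, with adjusted p = 0.00279 for *Tuba1c*, 0.00946 for *Tubb4b* and 0.00341 for *Tubb6*, where 13% of all genes passed, and by limma-voom, where 3.87% passed. In edgeR the 3 calls lay close to the threshold. With m5 and m9 left out, which held most muscle fibre transcripts, 0 members passed, and the log2 fold changes were 0.25 for *Tuba1c* (adjusted p = 0.219), 0.28 for *Tubb4b* (adjusted p = 0.275) and 0.25 for *Tubb6* (adjusted p = 0.252), where 1.42% of all genes passed. Leaving out single tumors gave 0 members without m1, m2, m4, m5, m11 or m12, 2 without m3 or m10, 3 without m7 or m8, and 4 without m6 or m9, *Tuba4a* being the additional one. The share of all genes called moved with these counts: it was 0% without m2, m4 or m5, 0.00555% without m11, 1.35% without m12, 1.56% without m1, 2.91% without m10, 4.93% without m7, 5.63% without m8, 7.15% without m3, 7.82% without m9 and 11.2% without m6. With a term for hosts with Y-linked transcripts, 0 members passed, at 0.35 for *Tuba1c* (adjusted p = 0.1 after rounding), 0.43 for *Tubb4b* (adjusted p = 0.112) and 0.33 for *Tubb6* (adjusted p = 0.102), where 2.14% of all genes passed. The 3 log2 fold changes stayed above 0.25 in each of these fits.

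**Figure D3:**
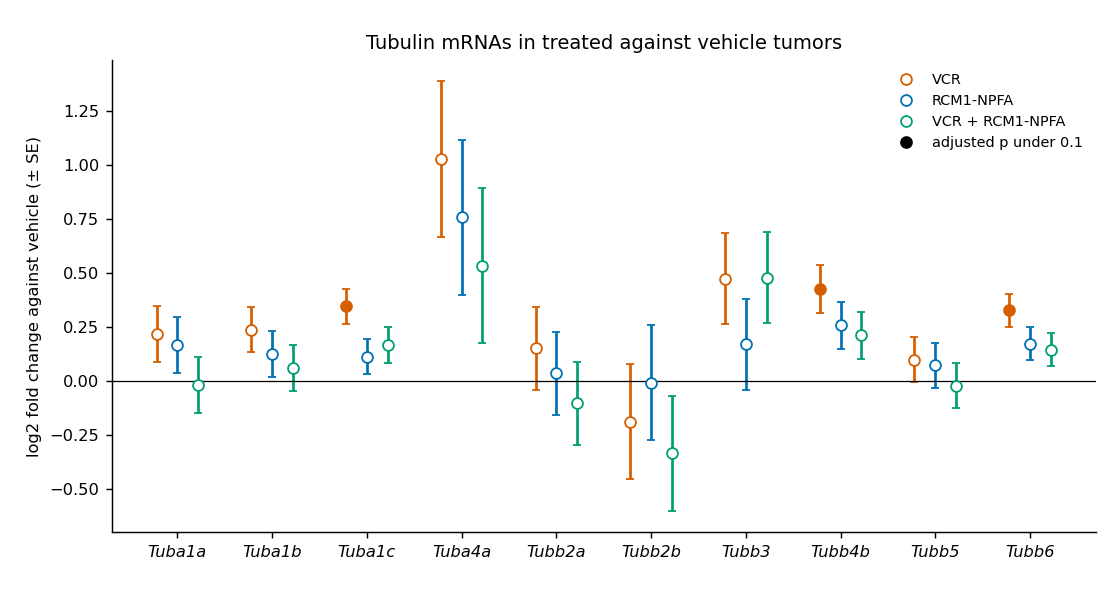
Log2 fold change against vehicle (± SE of the edgeR fit) of the 10 tubulin genes after VCR, RCM1-NPFA and the combination, 3 tumors in each group; filled points passed the adjusted p threshold of 0.1. *Tuba1c*, *Tubb4b* and *Tubb6* are filled after VCR only, at 0.33 to 0.43, and *Tuba4a* has the highest points and longest error bars.

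RCM1-NPFA alone, which targets FOXM1, changed 0 members (edgeR, adjusted p under 0.1), as it did 0% of all genes. At an unadjusted p under 0.05 there were 2 members and 1722 genes, and DESeq2 and limma-voom also called 0 members, with 1.57% and 0% of all genes called. The log2 fold changes were positive for 9 members, with a median of 0.15. *Tubb4b* was at 233.4, 291.6 and 269.2 CPM (log2 fold change 0.26, SE 0.11, adjusted p = 0.48), *Tubb6* at 220.2, 250.5 and 229.8 CPM (log2 fold change 0.17, SE 0.08, adjusted p = 0.495) and *Tuba1c* at 340.4, 351.3 and 329.1 CPM (log2 fold change 0.11, SE 0.08, adjusted p = 0.698). These 3 were higher in every RCM1-NPFA tumor than in every vehicle tumor, as were 5.56% of all genes. *Tuba4a* was at 39.5, 41.7 and 108.2 CPM, so that its log2 fold change of 0.76 (SE 0.36, adjusted p = 0.527) came mostly from m9, and it was 0.12 without m9 (adjusted p = 0.955). *Tuba1b* ranged from 1405 CPM in m7 to 1909 CPM in m8, wider than the whole vehicle group.

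The combination, the treatment the study was built around, also changed 0 members against vehicle (edgeR), with 0% of all genes called. At an unadjusted p under 0.05 there were 1 member, *Tubb3*, and 1286 genes, and DESeq2 and limma-voom called 0 members, with 0.347% and 0% of all genes called. Here 6 log2 fold changes were positive and the median was 0.10. *Tubb3* was at 11.3, 16.98 and 14.5 CPM (log2 fold change 0.48, SE 0.21, adjusted p = 0.682) and *Tuba4a* at 53.6, 65.0 and 43.5 CPM (log2 fold change 0.53, SE 0.36, adjusted p = 0.759). *Tubb4b* was at 249.2, 261.2 and 258.7 CPM (log2 fold change 0.21, SE 0.11, adjusted p = 0.699), *Tubb6* at 221.3, 237.7 and 228.5 CPM (log2 fold change 0.14, SE 0.08, adjusted p = 0.703) and *Tuba1c* at 330.8, 364.5 and 363.7 CPM (log2 fold change 0.17, SE 0.08, adjusted p = 0.692). In all 5 of these genes the combination tumors lay above the vehicle tumors, which held for 7.1% of all genes. *Tuba1a*, *Tuba1b*, *Tubb5* and *Tubb2a* had log2 fold changes between -0.10 and 0.06, and *Tubb2b* -0.33 (SE 0.27, adjusted p = 0.79). The comparisons with vehicle share the same 3 vehicle tumors.

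The effect of VCR averaged over tumors with and without RCM1-NPFA used all 12 tumors. It passed for 0 members in edgeR, with 0% of all genes called, 4 members and 1849 genes at an unadjusted p under 0.05, and a median log2 fold change of 0.12. *Tuba1c* had 0.20 (SE 0.06, adjusted p = 0.4), *Tubb4b* 0.19 (SE 0.08, adjusted p = 0.456), *Tubb6* 0.15 (SE 0.05, adjusted p = 0.431) and *Tubb3* 0.39 (SE 0.15, adjusted p = 0.437). DESeq2 called 1 member, *Tuba1c* (adjusted p = 0.0877), with 1.28% of all genes called, and limma-voom 0. Without m9 edgeR called *Tuba4a* (adjusted p = 0.0674), with 1.9% of all genes called.

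The interaction asks whether the difference made by VCR was another in the presence of RCM1-NPFA. It was called for 0 members by edgeR, with 0% of all genes called, and for 1, *Tubb6* (adjusted p = 0.0843), by DESeq2, which called 2.62% of all genes. At an unadjusted p under 0.05 edgeR had 5 members and 2437 genes. All 10 interaction terms were negative, with a median of -0.30 on the log2 scale beside -0.01 over all genes: the difference between VCR and vehicle was larger in the direction of higher tubulin than that between the combination and RCM1-NPFA. *Tubb4b* had -0.47 (SE 0.16, adjusted p = 0.293), *Tubb6* -0.35 (SE 0.11, adjusted p = 0.293) and *Tuba4a* -1.25 (SE 0.50, adjusted p = 0.32). The members are not independent of each other, and the same 12 tumors enter each term. All 22 fibre genes were also negative in the interaction (median -8.14), as were 8 of 10 endothelial genes (median -0.56), and their part in the tubulin terms was not tested. With m5 and m9 left out the terms were -0.32 for *Tubb4b*, -0.297 for *Tubb6* and -0.33 for *Tuba4a*.

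Over the 12 tumors 35 of the 45 pairs of members had a positive Pearson correlation of log2 CPM, which is given as a description, since all genes share the libraries and treatments. The coefficients ran from -0.61 (*Tuba4a* with *Tubb2b*) to 0.97 (*Tubb4b* with *Tubb6*), with a median of 0.49. *Tuba1c*, *Tubb4b* and *Tubb6* varied closely together, at 0.87 to 0.97, and *Tubb2a* with *Tubb2b* at 0.85. Among all other tested genes, the closest to *Tubb6* was *Cdc20*, the activator of the anaphase-promoting complex (r = 0.97), and the closest to *Tuba1c* was *Tbcb*, a chaperone of alpha-tubulin (r = 0.97). The closest were *Rps27l* for *Tubb4b* (0.95), *Bola1* for *Tubb5* (0.97), *Aaas* for *Tuba1b* (0.96), *Ccdc24* for *Tuba1a* (0.91), *Foxo6* for *Tubb2a* (0.97), *Cnn3* for *Tubb2b* (0.95), *Sh2d5* for *Tubb3* (0.90) and *Tpbgl* for *Tuba4a* (0.99).

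*Tuba4a* followed the muscle fibre transcripts of the tumors. Its log2 CPM and the log2 summed CPM of the 22 fibre genes had Pearson's r = 0.965 (permutation p = 1e-05, the smallest that the permutations can give, adjusted p = 0.0002 over 20 relations) and Spearman's rho = 0.909 (permutation p = 0.00013, adjusted p = 0.0026) over 12 tumors. Without m5 and m9, the tumors farthest from the median, r was 0.935, and with the group means taken out it was 0.959. The other 9 members had r between -0.586 (*Tubb2b*) and 0.682 (*Tubb4b*), and none of them had an adjusted p under 0.05. For *Tuba1c* r was 0.583 (permutation p = 0.042, adjusted p = 0.159), and 0.072 with the group means taken out. *Tubb6* had 0.635 and 0.196 by the same measures, and *Tubb4b* 0.682 and 0.357. With the summed level of 20 proliferation genes the 10 coefficients ran from -0.436 to 0.399, and none had an adjusted p under 0.05. In bulk tumors, more fibres and more RNA per fibre cannot be told apart.

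**Figure D4:**
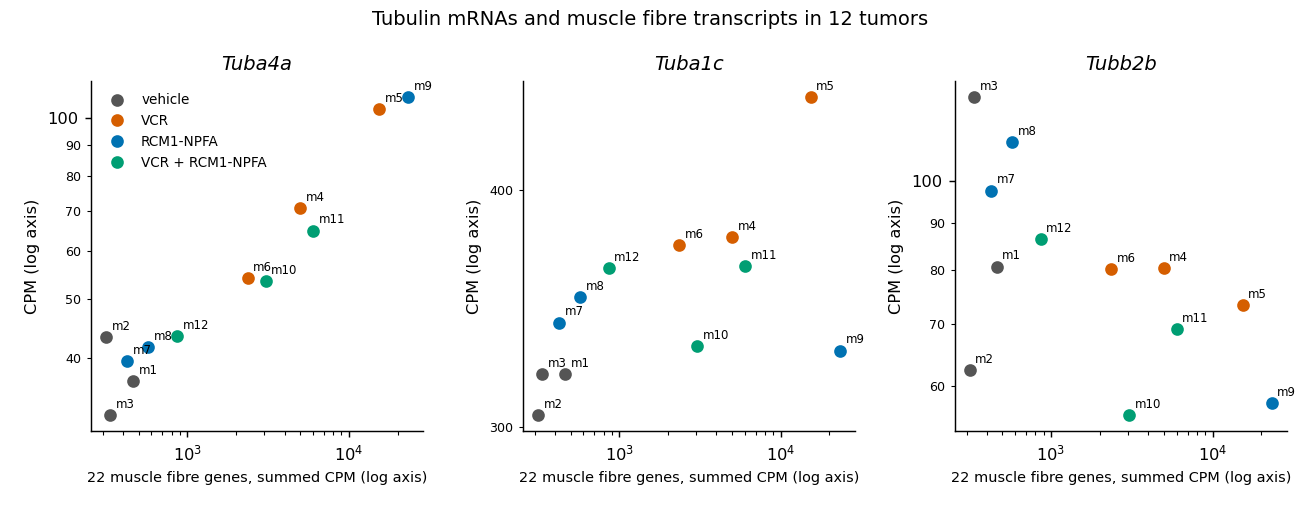
CPM of *Tuba4a*, *Tuba1c* and *Tubb2b* against the summed CPM of 22 muscle fibre genes in the 12 tumors (log axes), 1 point for each tumor, colored by group and labelled by number. *Tuba4a* is higher along the whole range (r = 0.965), *Tuba1c* is high in m5 but not in m9, and *Tubb2b* tends downward (r = -0.586).

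Markers of other cells moved with the groups, and their part in the tubulin differences was not tested. In VCR against vehicle 10 of the 22 fibre genes passed the test, all higher, and all 22 were higher in every VCR tumor than in every vehicle tumor. Of all genes 5.72% passed there and 13.5% were higher without overlap. In the combination 22 of 22 fibre genes were higher without overlap, and after RCM1-NPFA 11 of 22, beside 7.1% and 5.56% of all genes. In both of these groups 0 fibre genes were called, as were 0% of all genes. Of the myogenic list 3 of 7 tested genes passed in VCR, all higher (*Myod1*, *Myog* and *Des*), and of 10 endothelial genes 2 passed, both higher, with a summed level of 189.3 to 254.6 CPM after vehicle and 256.3 to 329.8 CPM after VCR. The log2 fold changes of 8 endothelial genes were positive and of 2 negative: *Vwf* (-0.66, SE 0.26, edgeR adjusted p = 0.167) and *Flt1* (-0.18, SE 0.20, adjusted p = 0.64). The 16 neuron and Schwann genes, of which 11 were tested, summed to 88.9 to 101.6 CPM after vehicle and 96.0 to 104.7 CPM after VCR with 0 called, and *Elavl4*, *Nefm* and *Snap25*, which define neurons, were at 0 to 0.066 CPM in the 12 tumors, in which *Tubb3* was at 8.43 to 16.98 CPM. Of the other neuronal genes in the list, *Stmn2* was at 0.101 to 0.339 CPM after vehicle and 0.422 to 0.571 CPM after VCR, without overlap (log2 fold change 1.29, SE 0.49, edgeR adjusted p = 0.161), and *Uchl1* at 0.586 to 1.546 and 1.356 to 1.713 CPM (log2 fold change 0.59, SE 0.34, adjusted p = 0.318). In the 12 tumors *Nefl* was at 0.067 to 0.647 CPM, *Prph* at 0.066 to 0.512 CPM and *Nefh* at 0 to 0.364 CPM. The 12 leukocyte genes, of which 10 were tested, and the 10 adipocyte genes had 0 calls, with sums of 764.1 to 920.7 and 67.1 to 242.2 CPM after vehicle and of 753.2 to 859.4 and 122.4 to 337.7 CPM after VCR. The 20 proliferation genes summed to 3049 to 3909 CPM after vehicle and 3262 to 3643 CPM after VCR. Of these 3 passed, all higher: the mitotic regulators *Aurka* (log2 fold change 0.47, SE 0.10), *Plk1* (0.36, SE 0.08) and *Cdc20* (0.29, SE 0.08). Over the 20 genes 13 log2 fold changes were positive and 7 negative, from -0.26 to 0.47 with a median of 0.08.

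The machinery that folds, modifies and degrades tubulin and its mRNA mostly did not pass the test. Neither did most other genes: 5.72% of all tested genes passed in VCR against vehicle by edgeR. Of 21 genes for tubulin folding 1 passed in VCR against vehicle: *Tbcb*, a cofactor that helps fold alpha-tubulin, was at 58.4, 56.3 and 55.3 CPM after vehicle and 74.8, 83.8 and 72.1 CPM after VCR (log2 fold change 0.44, SE 0.08, adjusted p = 0.0651). The groups did not overlap, the median over the list was 0.06, and *Tbcb* was at 0.37 with m5 and m9 left out (adjusted p = 0.113). At its low end was *Tbcel*, which destabilizes tubulin, at 41.6, 44.1 and 41.9 CPM after vehicle and 33.6, 34.9 and 39.5 CPM after VCR (log2 fold change -0.24, SE 0.07, adjusted p = 0.106). DESeq2 called *Tbcel* (adjusted p = 0.028). *Tbcb* had a log2 fold change of 0.18 after RCM1-NPFA (adjusted p = 0.474) and 0.22 after the combination (adjusted p = 0.666).

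None of the 9 genes of tubulin mRNA degradation passed in VCR against vehicle by edgeR, beside 5.72% of all genes, with a median log2 fold change of -0.12. At the ends of that list were *Cnot11* (0.14, SE 0.07, adjusted p = 0.231), a subunit of CCR4-NOT, and *Scaper* (-0.30, SE 0.11, adjusted p = 0.164), the adaptor between TTC5 and CCR4-NOT, which was at 15.8, 15.1 and 16.2 CPM after vehicle and 12.2, 12.2 and 14.0 CPM after VCR. DESeq2 called *Scaper* (adjusted p = 0.0833).

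Of 24 genes that add or remove residues at tubulin tails or acetylate it, 20 were tested and 1 passed in VCR, beside 5.72% of all genes. *Ttll11*, which elongates polyglutamate chains on tubulin, was at 10.3, 8.70 and 9.75 CPM after vehicle and 12.2, 16.4 and 12.6 CPM after VCR (log2 fold change 0.52, SE 0.14, adjusted p = 0.0871), and it was at 0.37 with m5 and m9 left out (adjusted p = 0.303). *Ttll6* had the highest (0.72, SE 0.74, adjusted p = 0.605) and *Ttll13* the lowest log2 fold change (-1.45, SE 0.43, adjusted p = 0.101), both polyglutamylases. Both were near the floor: *Ttll6* was at 0.421 CPM or less and *Ttll13* at 0.617 CPM or less in all tumors. Of 12 genes of gamma-, delta- and epsilon-tubulin and the gamma-tubulin ring complex, which starts new microtubules, 0 passed in VCR, between *Tubgcp6* (-0.29, SE 0.10, adjusted p = 0.126) and *Tubd1* (0.43, SE 0.19, adjusted p = 0.202). DESeq2 called *Tubgcp6* (adjusted p = 0.054). In the other 4 comparisons edgeR called 0 genes of these lists, as it called 0 of all 17602 tested genes.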

How the data were processed

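The authors prepared poly-A libraries of the 12 tumors and quantified them with kallisto against transcripts of GRCm38, then used DESeq2. Tool versions are not given in the sources used here. They deposited, for each of 120299 RefSeq transcripts, an estimated count (not normalized and not whole), a TPM value and effective length. A stranded kit and non-stranded libraries are both named, so overlapping antisense reads may not be told apart. Every transcript found its gene in RefSeq (GRCm38.p6), after which estimated counts and TPM were added up within genes and the sums of estimated counts were rounded.

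The 4 groups were fitted together with edgeR 4.0.16 (filterByExpr with a minimum count of 10, TMM, quasi-likelihood F test) in R 4.3.3, with Benjamini-Hochberg adjustment over 17602 genes in each of 5 comparisons and a threshold of 0.1. DESeq2 1.42.0 and limma 3.58.1 (voom) were alternatives, besides other normalization, filters, offsets, subsets and merged copies. A term for Y-linked transcripts (any read of *Kdm5d*) was added after seeing the data. The fit was tested on simulated data. Log2 CPM used a prior count of 2. Correlations were tested with 100000 two-sided permutations (Python 3.11.15, scipy 1.17.1), adjusted over 20 relations, for the fibre and the proliferation list. Coding sequences came from GENCODE M21.

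The members and gene lists were chosen with earlier results of these data known. Besides members, in each list of the tubulin pathway every gene called in a comparison and the genes with the highest and lowest log2 fold change in VCR against vehicle were named, and for each member the gene most correlated with it. The myogenic, neuronal, endothelial, fibre and proliferation genes named singly were chosen after their values were seen. Each tumor is taken as 1 mouse.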

Additional observations from a re-analysis of the deposited data

How the results depend on the processing

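Direction stayed the same in most fits of the members, while the 3 calls in VCR against vehicle were often lost. In the 12 fits without single tumors, *Tuba1c* was called in 6, *Tubb4b* in 4 and *Tubb6* in 6. In VCR against vehicle (3 members called) 0 were called by edgeR at a threshold of 0.05, with m5 and m9 left out and with the term for Y-linked transcripts, 1 with only the groups compared (*Tuba4a*, while the 3 were lost), and 0 to 4 when single tumors were left out. The smallest adjusted p of any gene in the main edgeR fit was 0.0486, so the threshold of 0.05 left almost no gene. Of all genes 1.42% passed with m5 and m9 left out, 2.14% with the Y-linked term and 2.76% with only the groups compared. DESeq2 called the same 3, each with an adjusted p of 0.00946 or less. VCR averaged over RCM1-NPFA had 1 member with DESeq2 (*Tuba1c*) and 1 with m5 and m9 left out (*Tuba4a*), and 0 to 1 without single tumors. Of all genes 1.28% passed there with DESeq2 and 1.5% with m5 and m9 left out. The interaction had 1 member with DESeq2 (*Tubb6*), where 2.62% of all genes passed. The cause of these changes was not tested.

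Signs turned for log2 fold changes near 0. With m5 and m9 left out they were 0.074 for *Tubb4a* in VCR, 0.23 for *Tubb2b* and -0.026 for *Tubb3* in RCM1-NPFA, and -0.076 for *Tuba1a*, -0.049 for *Tubb2a* and -0.037 for *Tubb5* in VCR averaged. With the Y-linked term *Tubb2a* was at -0.038 in RCM1-NPFA and at -0.039 in VCR averaged, and *Tubb5* at -0.0199 there. In VCR averaged *Tubb2a* was at -0.0033 with DESeq2's size factors and its Wald test, and *Tubb5* at -0.0091 with both, -0.0032 without a filter, -0.0062 at a mean of 50 counts and -0.0004 with length offsets.

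Without single tumors, values ran in VCR from -0.40 to 0.12 for *Tubb2b* (positive without m3) and -0.25 to 0.0801 for *Tubb4a*. In RCM1-NPFA they ran from -0.017 to 0.21 for *Tuba1b*, -0.16 to 0.21 for *Tubb2a*, -0.21 to 0.30 for *Tubb2b*, -0.025 to 0.35 for *Tubb3* and -0.0465 to 0.16 for *Tubb5*. In the combination they ran from -0.0845 to 0.052 for *Tuba1a*, -0.23 to 0.0753 for *Tubb2a* and -0.0675 to 0.061 for *Tubb5*. In VCR averaged they ran from -0.064 to 0.099 for *Tuba1a*, -0.0797 to 0.11 for *Tubb2a* and -0.0341 to 0.0612 for *Tubb5*, and in the interaction from -0.45 to 0.069 for *Tubb2b* and -0.35 to 0.028 for *Tubb3*. Shares of estimated counts in place of TPM moved 0 of 30 share differences beyond the spread between tumors, and 29 of 30 kept their sign.

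No paired analysis was possible because every tumor carries a number of its own. With 3 tumors in each group the smallest differences cannot be told from the spread between tumors.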
